A study of Mus musculus with 2 samples.

Results

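The nuclear-encoded subunits of the respiratory chain were described in total RNA of mouse megakaryocyte-erythroid progenitors (MEP), the bone marrow precursors of red cells and of platelet-forming cells. Members were protein-coding genes whose symbol begins with Ndufa, Ndufb, Ndufc, Ndufs, Ndufv, Uqcr, Cox4i, Cox5, Cox6, Cox7, Cox8 or Atp5, together with Sdha, Sdhb, Sdhc and Sdhd. Genes beginning with Ndufaf, which encode assembly factors, were left out. The rule found 85 members among 43346 Ensembl gene rows, of which 21461 are nuclear protein-coding genes. Complex I had 36 members, complex II 4, complex III 8, complex IV 20 and complex V 17. A second gene ID named Atp5o, which the newer annotation lists, has no row in the tables and was not analysed here.

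The series holds 1 group, MEP from C57BL/6J males at an age of 5 to 6 weeks, with no mutation or treatment named in the labels. It has 2 libraries, biological replicates 1 and 2, for each of which 100 ng of RNA went in after ribosomal RNA had been removed. Both carry the same donor entry, so nothing says that separate animals gave the cells, and the spread between the libraries may be technical. Replicate 1 had 39919884 expected counts and replicate 2 had 48043010. The members took 0.899% of them in replicate 1 and 0.946% in replicate 2.

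Respiratory complexes pass electrons from NADH and succinate to oxygen and pump protons across the inner mitochondrial membrane. ATP synthase, complex V, uses the returning protons to make ATP. Complexes I, III, IV and V combine subunits encoded in the nucleus with subunits encoded in mitochondrial DNA, whereas complex II is wholly nuclear-encoded. Erythroid precursors keep mitochondria for heme synthesis and lose them when they mature into red cells.

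All 7 markers listed for MEP were detected, including the carbonic anhydrase genes Car1 and Car2, which were the highest of the list. Markers of other cells were present too and differed between the libraries. Of 4 megakaryocyte markers 2 were detected, and their summed rescaled TPM was 172 in replicate 1 and 71.4 in replicate 2. Of 7 granulocyte markers 6 were detected, with sums of 248 and 622. Of these 6, 5 were higher in replicate 2, while Mpo went the other way, at 33.4 and 7.97. Elane, not detected, was also higher in replicate 1. Of 6 lymphoid and NK markers 2 were detected, with sums of 33.3 and 107. Here Nkg7 had 27.4 and 24.4, while Ccl5 had 5.83 and 33.9. Gzma, which was not called detected, had 0 and 43.9. None of 4 muscle markers was detected. Their part in the ratios between the libraries was not tested. In bulk RNA, fewer cells of a type and less RNA per cell cannot be told apart.

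Levels of different genes are compared per length, as rescaled TPM. These are the deposited TPM (a share of transcripts, adjusted for length) rescaled so that nuclear protein-coding genes sum to 1000000 in each library. The rescaling was used because nuclear protein-coding genes held 25.5% of the deposited TPM in replicate 1 and 20.6% in replicate 2. A gene was called detected at a rescaled TPM of at least 1 in both libraries.

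Nearly all subunit genes were expressed in these progenitors. Of those not detected in both libraries, 7 were tissue-restricted isoforms of complex IV and 1, Atp5l, was below the threshold in replicate 1 alone. In all, 77 of 85 members were detected (90.6%), against 46.2% of nuclear protein-coding genes. Every member of complexes I, II and III was detected. Complex IV had 13 of 20 and complex V 16 of 17. The undetected complex IV genes were Cox4i2, Cox6a2, Cox7a1, Cox7b2, Cox8b, Cox8c and Ndufa4l2, and the undetected complex V gene was Atp5l. Detected members had a median of 239 (replicate 1) and 219.96 (replicate 2), while all detected nuclear protein-coding genes had 27.2 and 27.3. A mean above 100 was reached by 62 members, which is 80.5% of the detected members and compares with 16.7% of all detected genes. Subunit mRNAs are short. Their median length was 719 bases, against 2396 for all detected genes, so a given level of a member rests on fewer counts than that of a long gene.

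**Figure D1:**
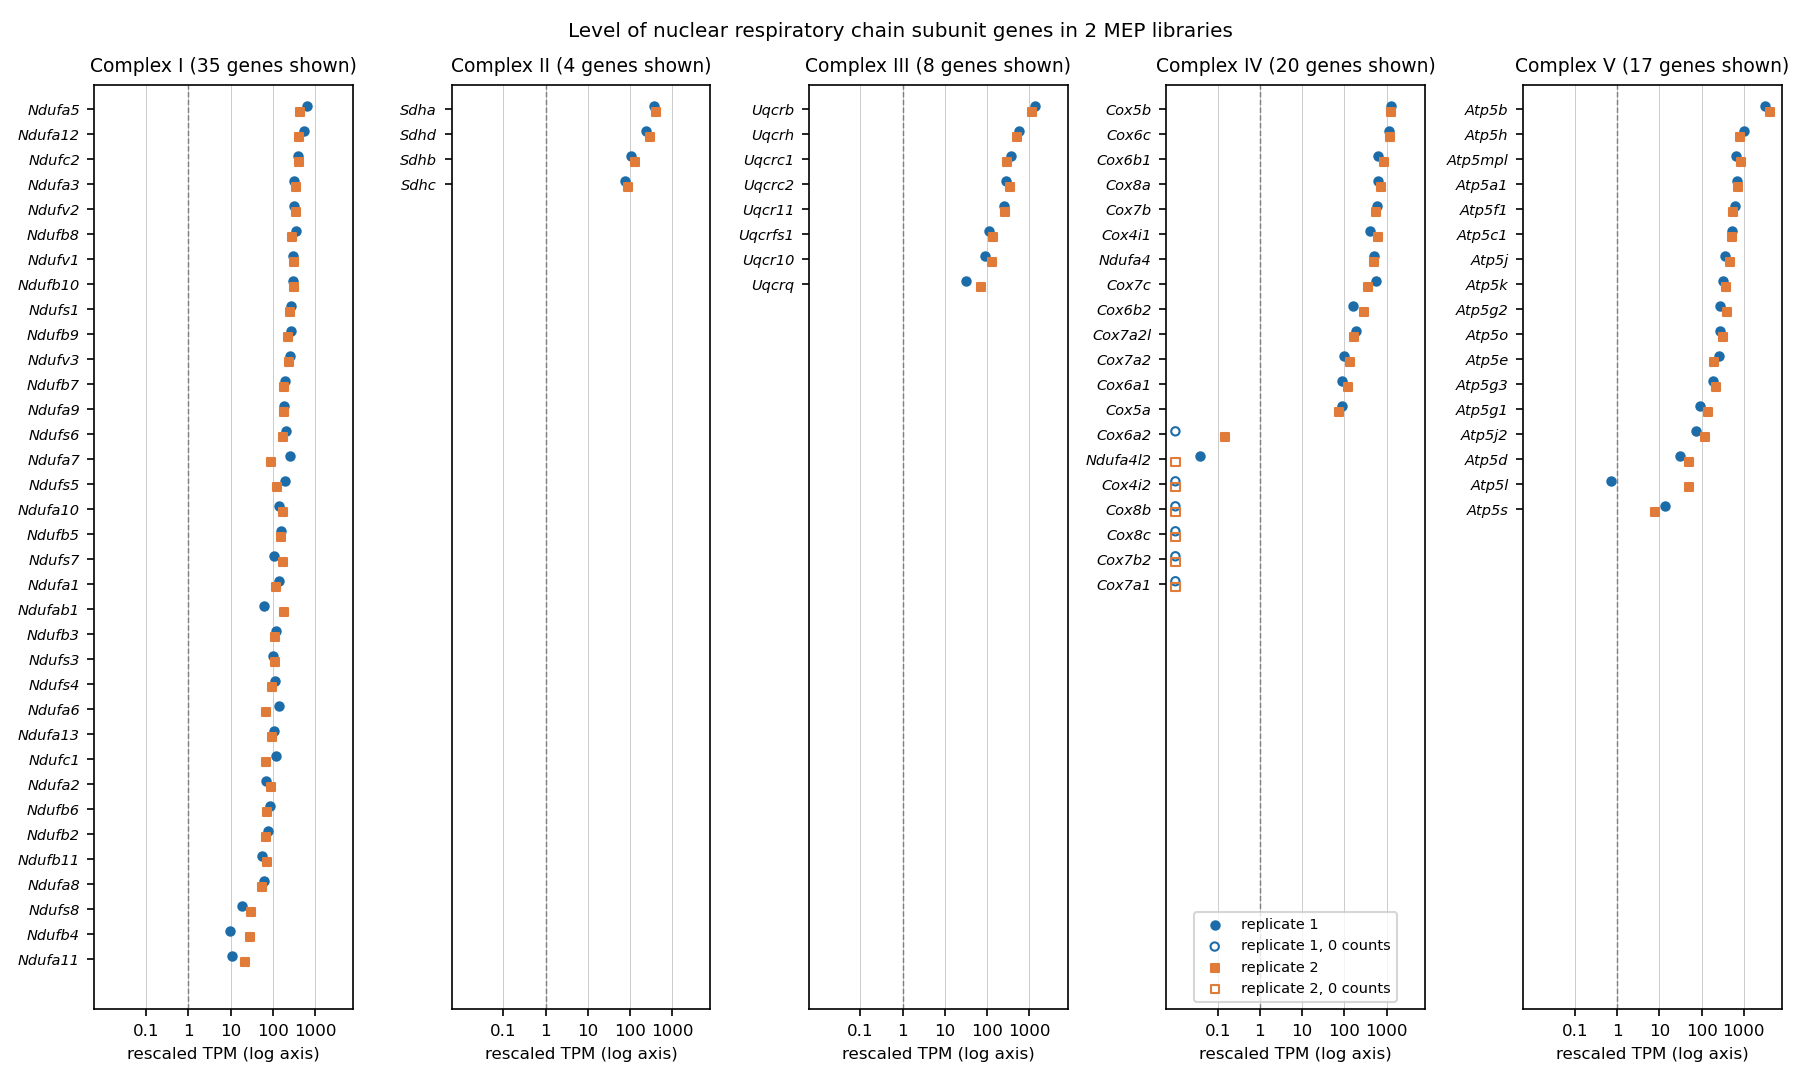
Rescaled TPM (log axis) of the subunit genes by complex, without 1 gene of complex I, with replicate 1 as circles, replicate 2 as squares, and the line for detection at 1. Open symbols mark genes with 0 counts. The detected genes lie to the right of the line in both libraries, 7 complex IV genes lie to its left, and Atp5l lies left of it in replicate 1 alone.

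Complex I oxidises NADH. Its 7 nuclear-encoded core subunits carry the flavin and the iron-sulfur clusters, and the supernumerary subunits surround them. Core genes had a median of 271 (replicate 1) and 252 (replicate 2), above the 29 supernumerary genes at 141 and 126. Over protein-coding transcripts alone the core median lay below the supernumerary median in replicate 1 and only slightly above it in replicate 2. Over all transcripts Ndufa5 and Ndufa12, both supernumerary, nevertheless led the complex. Ndufa5 had a rescaled TPM of 659 (replicate 1) and 446 (replicate 2), and Ndufa12, the paralog of the assembly factor gene Ndufaf2, had 549 and 412. Ndufc2 followed with 386 and 406, and Ndufa3 with 319 and 359. The core genes Ndufv2, at 312 and 347, and Ndufv1, at 296 and 319, lay close to each other in both libraries. Ndufs1, which encodes the largest iron-sulfur subunit, had 271 and 252. Over protein-coding transcripts alone Ndufa12 led the complex at 642 and 474, and Ndufa5 had 179 and 135.

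The lowest genes of complex I were Ndufa11 and Ndufb4. Ndufa11 had a rescaled TPM of 10.5 (replicate 1) and 22.5 (replicate 2), and Ndufb4 had 9.79 and 28.8. The core gene Ndufs8 was also low, with 18.9 and 30.4. These 3 genes lay below every other complex I gene in both libraries. The level of Ndufa11 rests on a single annotated transcript of 2661 bases in the tables, against a median length of 719 bases over the members. Ndufb4 has a processed copy, described further on. Further complex I genes had means over the libraries from 57.9 for Ndufa8 to 316 for Ndufb8.

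Complex II, succinate dehydrogenase, also belongs to the citric acid cycle. Its flavoprotein gene Sdha had a rescaled TPM of 365 (replicate 1) and 411 (replicate 2). Sdhb, the iron-sulfur subunit, had 104 and 134. The membrane anchors differed from each other, with Sdhd at 239 and 305 and Sdhc at 75.1 and 88.2. The order Sdha, Sdhd, Sdhb, Sdhc was the same in both libraries. Over protein-coding transcripts alone Sdhd led instead, at 279 and 349.8 beside 241 and 335 for Sdha, of whose TPM non-coding transcripts held 43.5% and 29.1%. Those transcripts held only 4.74% (replicate 1) and 1.57% (replicate 2) of the Sdha counts. The 13 citric acid cycle genes listed beside them, all detected, had a median of 152 and 172, led by Idh3g at 283 and 250.2 and Mdh2 at 210.3 and 299.

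Complex III passes electrons from ubiquinol to cytochrome c. Uqcrb, which encodes a small subunit, led with a rescaled TPM of 1336 (replicate 1) and 1140.3 (replicate 2), more than 2 times the next gene, the hinge protein gene Uqcrh, at 574 and 506. The core protein genes Uqcrc1 (363 and 299) and Uqcrc2 (286 and 345) changed order between the libraries. Over protein-coding transcripts alone Uqcrc1, at 416 and 341, lay above Uqcrc2, at 260.2 and 231, in both. These values leave out a Uqcrc2 transcript of 456 bases that has no class in the newer annotation. It held 14.5% of the Uqcrc2 TPM in replicate 1 and 36.0% in replicate 2, so this order is uncertain. The small subunit gene Uqcr11 had 252 and 266, and Uqcrfs1, which encodes the Rieske iron-sulfur protein, 111 and 138. At the low end Uqcr10 had 87.5 and 127, and Uqcrq had 32.3 and 71.0. Cyc1, the cytochrome c1 subunit whose symbol the rule does not take, had 94.1 and 85.8, and the carrier gene Cycs 141 and 136.

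Complex IV, cytochrome c oxidase, reduces oxygen. The median over its 13 detected members was 507 (replicate 1) and 491 (replicate 2), above the detected members of any other complex. Over all 20 members the medians were 128 and 152, the lowest of the 5 complexes, with 7 members at or near 0. Over protein-coding transcripts alone complex IV, with a median of the means of 161, lay above complex I at 142. Cox5b had a rescaled TPM of 1293 and 1291, and Cox6c 1121 and 1204. Both genes lay above every other complex IV gene in both libraries. Cox6b1 (622 and 884) and Cox8a (610.1 and 719) came next. Cox4i1, which encodes the largest nuclear subunit, had 403 and 641. Ndufa4, named for complex I but a subunit of complex IV, had 507 and 491. Cox7b had 592 and 565, and Cox7c 558 and 360.3. Cox7a2l, a relative of Cox7a2, had 187 and 169.8. At the low end Cox5a had 86.4 and 74.4 and Cox6a1 had 88.7 and 121. Cox5a and Cox5b encode separate subunits of 1 complex and differed by more than 10 times in each library.

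Complex V held the highest member of all. Atp5b, which encodes the catalytic beta subunit, had a rescaled TPM of 3222 (replicate 1) and 4148 (replicate 2), and lies on mm10 chromosome 10, 128083273 to 128090391. Atp5a1, the alpha subunit that alternates with beta in the head, had 700.4 and 731. The gamma subunit gene Atp5c1 had 521 and 519. The other stalk and head genes were lower, with Atp5e at 260.3 and 197 and Atp5d at 30.6 and 51.7. Among peripheral stalk genes Atp5h led at 1029 and 827, Atp5f1 had 610.4 and 556, and Atp5o, the subunit that confers oligomycin sensitivity, had 279.9 and 314. Atp5mpl, a small membrane subunit, had 669 and 860.3, Atp5k (subunit e) 329.6 and 381, and Atp5j2 (subunit f) 74.8 and 119.7. Atp5s, a coupling factor gene, was the lowest detected gene of the complex at 13.4 and 7.73.

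The membrane ring of ATP synthase is built from subunit c, and 3 genes encode the same mature protein. All 3 were expressed. Atp5g2 had a rescaled TPM of 266 (replicate 1) and 391 (replicate 2). Atp5g3 had 191 and 219.96, and Atp5g1 had 91.6 and 143. The order Atp5g2, Atp5g3, Atp5g1 was the same in both libraries, and the sum of the 3 genes was 548 and 754. Their coding sequences agree at 67.4% to 72.1% of aligned bases, so they are not near-identical at the nucleotide level.

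Several complex IV subunits have a widely expressed isoform and one restricted to tissues such as heart, skeletal muscle, lung or testis. In 6 of 7 such subunits, and for Ndufa4 among them, the restricted gene was absent or had at most 2 counts. Cox4i1 had 4905 counts in replicate 1 and 9180 in replicate 2, while Cox4i2, the lung and hypoxia isoform, had 0 in both. Against a floor of 3 counts per library Cox4i1 was at least 1590.5-fold and at least 2979.5-fold higher. Cox7b was at least 1471-fold and 1648-fold higher than Cox7b2. Cox8a was at least 687-fold and 948-fold higher than Cox8b, the heart and muscle form, and at least 1205-fold and 1666.5-fold higher than the testis form Cox8c. Cox7a2 was at least 112-fold and 178-fold higher than the muscle form Cox7a1.

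Cox6a2, the heart and muscle form, had 0 counts in replicate 1 and 2 in replicate 2. Cox6a1 was at least 299.9-fold higher in replicate 1 and 828-fold higher in replicate 2, with an exact 95% counting interval from 229 to 6848. Ndufa4l2, a hypoxia-induced relative of Ndufa4, had 1 count in replicate 1 and 0 in replicate 2. Ndufa4 was 12944-fold higher in replicate 1 (95% counting interval 2322 to 511419) and at least 3326-fold higher in replicate 2. These intervals and floors cover counting error only.

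Cox6b2 was the exception. It encodes the form of subunit VIb known from testis, at mm10 chromosome 7, 4751792 to 4753094. It had 934 counts in replicate 1 and 2192 in replicate 2, and a rescaled TPM of 158 and 296. Its widely expressed partner Cox6b1 was 3.93-fold higher in replicate 1 and 2.98-fold in replicate 2, a log2 ratio of 1.78 ± 0.28 (SD, n = 2). The coding sequences of the pair agree at 58.8% of 257 aligned bases, no near-identical copy of Cox6b2 was found, and no other gene with at least 20 counts overlaps it. The fold between the pair was higher in replicate 1, but both libraries placed Cox6b2 above Cox7a2, Cox6a1 and Cox5a. With 2 libraries an exact two-sided sign test cannot go below 0.5, so no test was run on any pair.

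**Figure D2:**
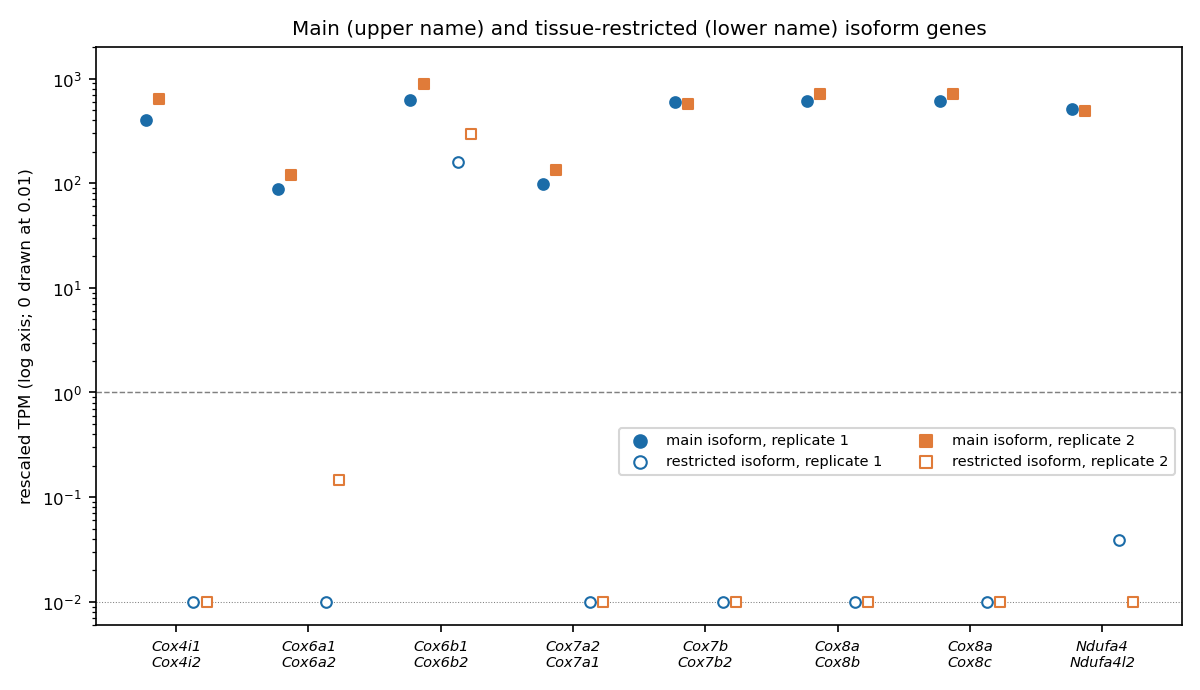
Rescaled TPM (log axis) of the widely expressed isoform (filled) and of the tissue-restricted isoform (open) of each pair, with replicate 1 as circles and replicate 2 as squares. A value of 0 is drawn at 0.01. Cox6b2, at 158 and 296, is the restricted isoform above the detection line at 1.

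Most subunit genes had similar levels in both libraries. The ratio is log2((replicate 1 + 1)/(replicate 2 + 1)) of the rescaled TPM, over genes whose mean was 5 or more and whose expected counts in the libraries together were 20 or more. Of 78 members with a ratio, 60 lay within 1.5-fold (76.9%), against 73.5% of 8849 nuclear protein-coding genes. Past 2-fold, 1 member was higher in replicate 1, where 5.07% of all genes were, and 5 members were higher in replicate 2, where 4.67% of all genes were. Over both directions 6 of 78 members lay past 2-fold, against 9.74% of all genes. The median ratio was -0.079 over the members and 0.0018 over all genes. No p-value can be given, since each replicate is 1 library.

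The medians by complex were small. They were 0.092 for complex I, -0.29 for complex II, -0.17 for complex III, -0.10 for complex IV and -0.21 for complex V. All 4 succinate dehydrogenase genes and 12 of 17 complex V genes had ratios below 0, as did all 3 subunit c genes, except that with the TPM as deposited Sdha, Sdhc and Atp5g3 were at 0.14, 0.076 and 0.10 and 8 of 17 complex V genes lay below 0. With TMM-scaled counts the median of complex I was -0.015, and with the TPM as deposited the medians of all 5 complexes were above 0, a scale on which the median of all genes was 0.27. Relative to that median the ratios of Sdha, Sdhc and Atp5g3 were below it.

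**Figure D3:**
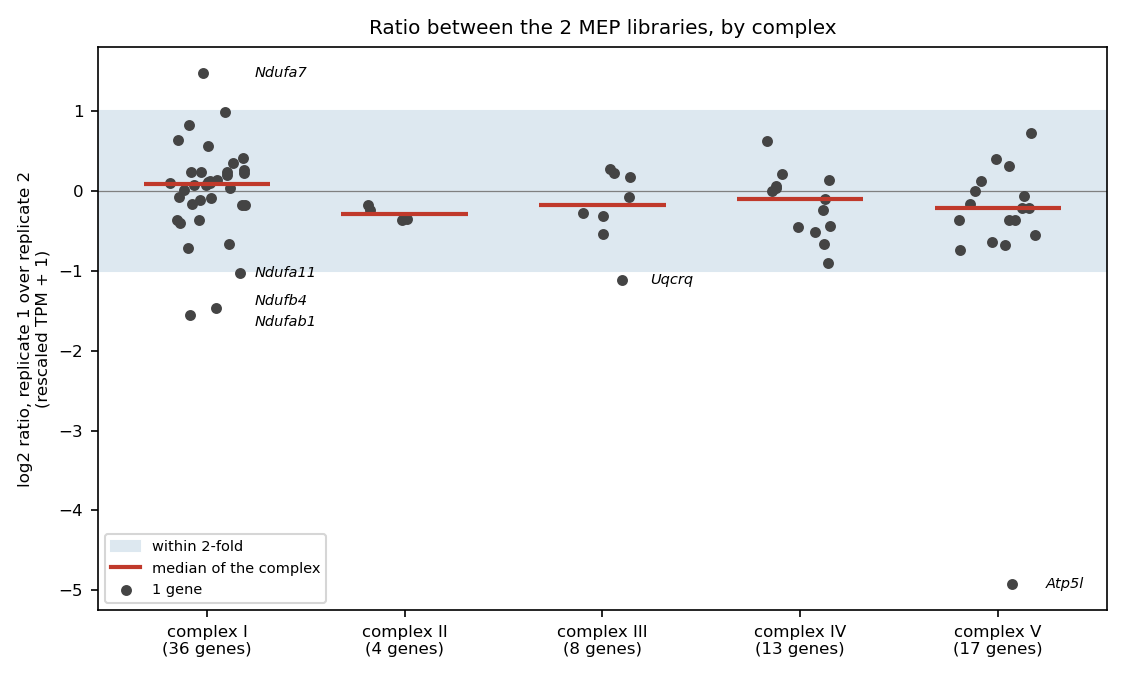
The log2 ratio of replicate 1 over replicate 2 for 78 members by complex, each point 1 gene, the line the median of a complex and the shaded band the range within 2-fold. The 6 named genes lie outside the band, and Atp5l, at -4.93, lies far below the others.

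The ratios of several members past 2-fold changed with the transcripts or copies that were counted. Ndufa7, a complex I subunit, was higher in replicate 1, with a rescaled TPM of 256 (replicate 1) and 90.8 (replicate 2) and a log2 ratio of 1.49. Over its protein-coding transcripts alone the ratio was 0.56. Non-coding transcripts held 56.4% of its TPM in replicate 1 and 15.2% in replicate 2. Ndufab1, the mitochondrial acyl carrier protein, had 62.0 and 183 and a ratio of -1.55. Its leading transcript differed, with Ndufab1-202 at 66.8% of the TPM in replicate 1 and Ndufab1-206 at 81.2% in replicate 2. With TMM-scaled counts the ratio was -0.79, and over protein-coding transcripts alone it was -1.73. Uqcrq had a ratio of -1.11 and Ndufa11 of -1.03, both from the levels given above. Both were within 2-fold with the TPM as deposited, at -0.75 and -0.61, but past it with TMM-scaled counts, at -1.10 and -1.12. Ndufa6, at 0.99, was just inside 2-fold.

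Atp5l had the largest ratio of any member, and most counts of its sequence stood in a copy. Atp5l, on mm10 chromosome 9, 44912557 to 44920742, encodes subunit g of ATP synthase, a membrane protein of the dimer interface. It had 4.87 expected counts in replicate 1 and 402 in replicate 2, and a rescaled TPM of 0.70 and 50.8, a log2 ratio of -4.93. Gm10221, annotated as a processed pseudogene on chromosome 5, 24581554 to 24581862, had 1865 and 2573 counts. The whole Atp5l coding sequence of 309 bases is found unbroken in Gm10221. A second copy, Atp5l-ps1 on chromosome 7, 62476306 to 62476617, had 1.34 and 0 counts. The first 150 coding bases, read from GENCODE M21 on mm10 and shown because reads from Atp5l and Gm10221 cannot be told apart there, are given 5′ to 3′ on the coding strand, with bases that differ from Atp5l in capitals.
Atp5l: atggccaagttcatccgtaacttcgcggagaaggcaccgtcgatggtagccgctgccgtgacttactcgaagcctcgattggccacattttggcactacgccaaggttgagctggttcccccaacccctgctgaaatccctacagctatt
Gm10221: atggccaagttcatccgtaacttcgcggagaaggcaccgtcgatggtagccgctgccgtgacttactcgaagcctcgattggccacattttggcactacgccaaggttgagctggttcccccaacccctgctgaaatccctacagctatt
Atp5l-ps1: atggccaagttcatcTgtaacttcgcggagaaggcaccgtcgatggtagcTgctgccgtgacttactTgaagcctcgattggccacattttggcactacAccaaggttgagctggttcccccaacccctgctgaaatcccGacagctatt
Gm10221 has 0 differences in this stretch and Atp5l-ps1 has 5. With the copies added, Atp5l had 1871 counts in replicate 1 and 2977 in replicate 2, a rescaled TPM of 398 and 519, and a ratio of -0.38. On that scale Atp5l, listed at 0.70 in replicate 1, lies among the higher complex V genes. Reads within such identical stretches cannot be told apart, and which locus gave them was not tested.

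Ndufb4, the low complex I gene, showed a like division. Its coding sequence of 387 bases is found unbroken in Ndufb4c, annotated as a processed pseudogene on chromosome 15, 73809507 to 73809896. Ndufb4 had 171 and 358 expected counts, while Ndufb4c had 2346 and 2025. Copies held 93.2% of the sum in replicate 1 and 84.98% in replicate 2. With copies the level of Ndufb4 was 598 and 462 in place of 9.79 and 28.8, and its log2 ratio was 0.37 in place of -1.47, so its direction between the libraries turned.

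Many members had copies, which seldom took many counts. Copies of other genes were not sought, so no share over all genes can be set beside these counts. A copy, here a transcript of another gene with at least 85% identity over at least 70% of the longest coding sequence, was found for 42 of 85 members. There were 101 copies in the annotation. Of these 75 have a row in the tables, and 71 of the 75 are annotated as pseudogenes. Only 17 copies, of 15 members, had at least 20 counts. Atp5g2 and Cox7c also have copies that hold their whole coding sequence. Gm10175 had 399 and 185 counts beside 3146 and 5457 for Atp5g2, and Gm12338 had 153 and 255 beside 2424 and 1914 for Cox7c. The copies held at most 11.7% of the summed counts of either pair. Per length the share was larger for Cox7c, where the short Gm12338 had a rescaled TPM of 332 (replicate 1) and 491 (replicate 2) beside 558 and 360.3 for Cox7c.

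**Figure D4:**
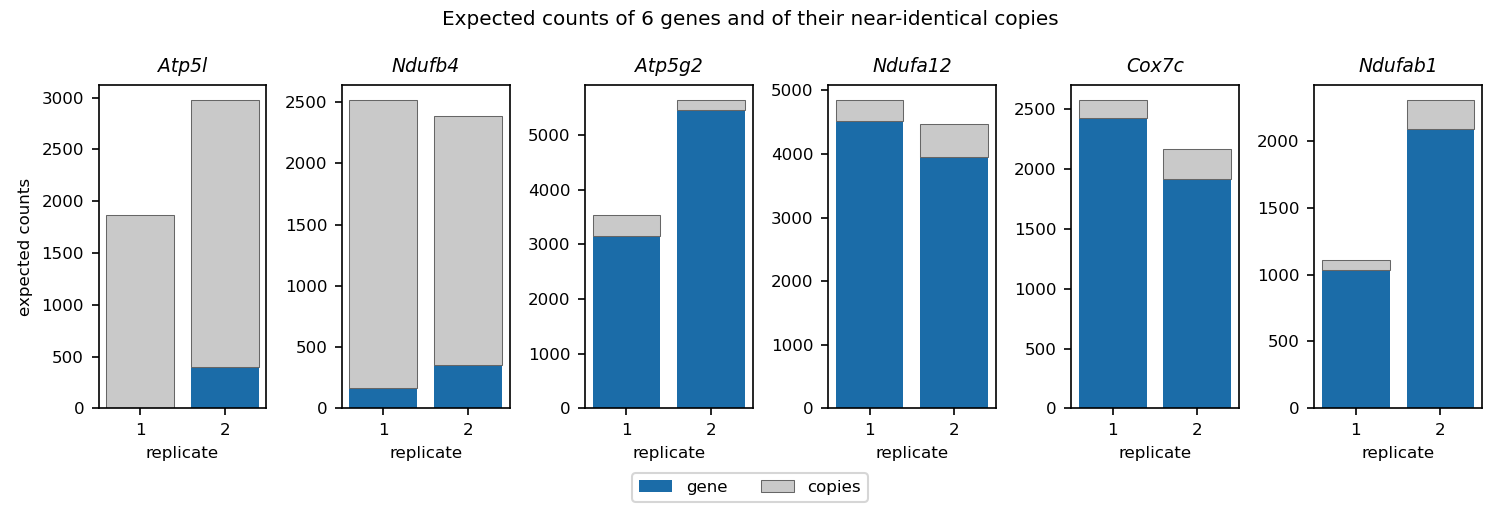
Expected counts per library for 6 members (dark) and, stacked on them, for their near-identical copies (light). For Atp5l and Ndufb4 the copies hold most of each bar, and for Atp5g2, Ndufa12, Cox7c and Ndufab1 the gene itself does.

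Transcript estimates bear on the levels of some of the highest genes. Of 77 detected members, 21 have 1 annotated transcript, and of the 56 with several, 47 were led by the same transcript in each library. For Atp5b, Cox7c and Ndufa5 the leading transcript in both libraries was annotated as having no coding sequence. Atp5b-206, a transcript of 478 bases, held 44.9% of the Atp5b TPM (replicate 1) and 55.9% (replicate 2), yet only 19.5% and 25.2% of its counts. Atp5b-201, the coding transcript of 1916 bases, held 72.3% and 68.8% of the counts but 25.2% and 22.9% of the TPM. Over protein-coding transcripts alone, with all genes rescaled the same way, Atp5b had 949 and 1091. It then lay below Uqcrb at 1555 and 1302, Cox5b at 1487 and 1473 and Cox6c at 1287 and 1376. On this scale Atp5b therefore did not lead the members in either library.

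Ndufa5 showed the same feature. Ndufa5-204, of 453 bases and without a coding sequence, held 76.8% of its TPM in replicate 1 and 73.6% in replicate 2, and its coding transcripts had 179 and 135. Cox7c-201 held 65.8% and 63.0% of the Cox7c TPM. In all, 11 members had more than 20% of their TPM in non-coding transcripts in both libraries. Transcripts without a class in the newer annotation were counted as non-coding here, and Uqcrc2 is among the 11 only through such a transcript. This count was not made for other genes. The median share of non-coding transcripts was 0.57% (replicate 1) and 0.062% (replicate 2) over detected members. Over all detected nuclear protein-coding genes it was 0% in both. Over all members non-coding transcripts held 18.9% and 18.98% of TPM and 9.40% and 8.33% of counts. These shares are estimates from short reads of transcripts that overlap each other.

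**Figure D5:**
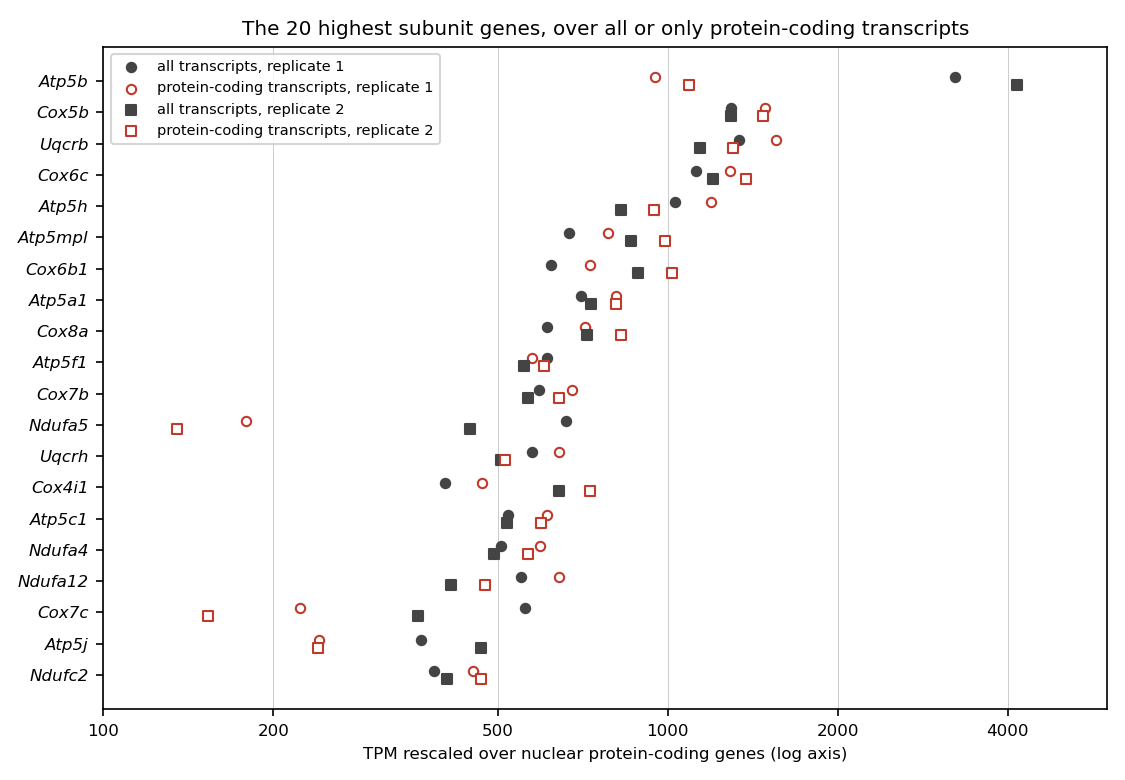
Rescaled TPM (log axis) of the 20 highest members over all transcripts (filled) and over protein-coding transcripts alone (open), with replicate 1 as circles and replicate 2 as squares. Atp5b moves to 949 and 1091 and Ndufa5 to 179 and 135, while Cox5b lies at 1487 and 1473.

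Members lay on 19 chromosomes, including 3 on X (Ndufa1, Ndufb11 and Cox7b), and many stood head to head with a neighbour. A protein-coding gene on the opposite strand began within 1000 bases of the start of 31 of 77 detected members (40.3%), against 18.6% of 9923 detected nuclear protein-coding genes. No test was made of this difference. Of the 31 partners 22 were detected themselves. Ndufa7 begins 10 bases from the ribosomal protein gene Rps28, which had a rescaled TPM of 3264 (replicate 1) and 3805 (replicate 2). Ndufs1 is paired with the elongation factor gene Eef1b2 (4333 and 3554), Sdhd with Timm8b, a gene of mitochondrial protein import (296 and 257), and Ndufb5 and Ndufs6 with the mitochondrial ribosomal protein genes Mrpl47 and Mrpl36. Annotated bodies of 19 members overlap another gene with at least 20 counts on the opposite strand, which was not counted for other genes. The sources used here do not give whether the counting used strand, so counts of such pairs are uncertain. Cox4i1 also overlaps the protein-coding gene Gm20388 on its own strand, which had 1635 counts in replicate 1 and 1956 in replicate 2. Strand cannot separate that pair.

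Atp5j, which encodes the coupling factor subunit F6, is paired with Gabpa, the DNA-binding subunit of the ETS family factor GABP, also called NRF2. Nuclear respiratory genes are known targets of NRF1, GABP and YY1. Atp5j had a rescaled TPM of 365 (replicate 1) and 467 (replicate 2), and Gabpa 97.7 and 91.3. Of 11 listed regulators 10 were detected, with a median of 33.6 and 38.3, led by the mitochondrial DNA packaging factor gene Tfam at 199 and 185 and Yy1 at 113 and 95.9. Nrf1 had 61.5 and 89.1. The promoters of 3 members that hold letters for these factors are shown, 250 bases before to 50 after the start, from RefSeq on GRCm38.p6, 5′ to 3′ on the minus strand of the chromosome, with matches in capitals.
Cox6a1 (chr5:115348909-115349208): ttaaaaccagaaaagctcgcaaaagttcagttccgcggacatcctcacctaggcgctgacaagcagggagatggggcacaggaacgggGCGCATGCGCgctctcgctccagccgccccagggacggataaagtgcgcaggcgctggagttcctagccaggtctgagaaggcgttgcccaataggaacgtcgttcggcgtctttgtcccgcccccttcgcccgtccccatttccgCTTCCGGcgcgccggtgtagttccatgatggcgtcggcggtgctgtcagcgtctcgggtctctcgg
Uqcr11 (chr10:80406772-80407071): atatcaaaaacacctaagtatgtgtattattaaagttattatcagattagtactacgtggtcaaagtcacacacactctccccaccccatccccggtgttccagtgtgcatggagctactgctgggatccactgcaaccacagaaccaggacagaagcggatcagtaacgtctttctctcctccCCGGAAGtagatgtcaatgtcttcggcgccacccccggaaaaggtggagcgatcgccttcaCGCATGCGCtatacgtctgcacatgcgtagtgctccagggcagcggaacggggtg
Atp5j (chr16:84834927-84835226): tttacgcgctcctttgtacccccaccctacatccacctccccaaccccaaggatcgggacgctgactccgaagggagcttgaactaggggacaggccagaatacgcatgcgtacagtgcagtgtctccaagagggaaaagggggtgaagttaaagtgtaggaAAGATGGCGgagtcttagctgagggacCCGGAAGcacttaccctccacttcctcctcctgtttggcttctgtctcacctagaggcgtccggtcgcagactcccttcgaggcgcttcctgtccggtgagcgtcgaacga
In Cox6a1 the capitals are an NRF1 match from base -162, overlapped by another on the other strand from -161, and an ETS match on the other strand from base -16, counted from the start as 0. In Uqcr11 they are an ETS match from -66 and an NRF1 match on the other strand from -5. In Atp5j, whose second listed start is shown, they are a YY1 match from -88 and an ETS match from -61.

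Across the set, 67 of 85 members, among them some that were not called detected, had a promoter in the table. The letters of NRF1, GCGCATGCG on either strand, were found in 8 of them (11.9%), against 4.75% of detected genes and 1.95% of all 27025 genes. Those of YY1, AAGATGGCG, were found in 7 (10.4%), against 4.31% of detected genes and 1.64% of all. The ETS letters CCGGAAG were found in 16 (23.9%), against 23.2% of detected genes and 9.93% of all. The ETS share of members was thus close to that of detected genes in general, and the same holds for the CCAAT letters, at 43.3% against 44.1%. For TATAAA the shares were 10.4% and 7.88%, and for the GATA letters AGATAA 8.96% and 7.73%. Of the 67 members, 26 held at least 1 of the NRF1, ETS or YY1 matches. In windows of only the 200 bases before the start the YY1 share was 1.49%, against 1.43% of detected genes, and the ETS share 14.9%, against 16.7%. The NRF1 share was 7.46%, against 3.73%. These are matches of letters, not measured binding.

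Set beside their partners, subunit genes had higher levels than the factors that assemble them. Of 46 listed assembly factors and inhibitors 45 were detected, with a median rescaled TPM of 31.9 and 30.6, against 191 and 181 for all 85 members. The 14 complex I assembly genes had 32.7 and 30.6, beside 147 and 161 for complex I subunits, and the 18 complex IV assembly genes 30.7 and 31.6. A few stood out. Atpif1, which encodes the inhibitory factor of ATP synthase, had 3640 and 3051. Cox17, a copper chaperone for complex IV, had 486 and 530.1, and Uqcc2, an assembly factor of complex III, 185 and 213. The 13 subunits encoded in mitochondrial DNA were all detected, with a median of 1333 and 1690 on the same scale. Past 2-fold, 1 of them was higher in replicate 1 and 4 were higher in replicate 2. For example, mt-Nd4l had 383 and 15.6, and mt-Atp6 had 153 and 1257. Single values of these genes are therefore uncertain. Some of the genes abut or overlap each other, and the cause of the differences was not tested.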

How the data were processed

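Total RNA of 2 MEP libraries was measured. Per the file headers, the authors' tables give an expected count (an estimated read or fragment number per gene or transcript), a TPM, a posterior mean TPM, interval bounds and lengths. Build mm10 and annotation GENCODE M4 are named in the deposited text files, but the sources used here do not name the program. Symbols, classes and coordinates came from GENCODE M21 on the same assembly. Of 43346 gene rows, 42462 matched. TPM were rescaled over nuclear protein-coding genes. Copies were sought with blastn 2.17.0. TMM factors (edgeR 4.0.16) and DESeq2 1.42.0 size factors used rounded expected counts and served as alternatives. Python 3.11.15 (pandas 2.3.3, numpy 2.4.6, matplotlib 3.10.9) and R 4.3.3 ran the other steps. The ratio formula was tested on simulated TMM-scaled counts, with a smaller spread between libraries than in these data. The ratio of rescaled TPM was not tested in this way. Members, lists and alternatives were chosen with earlier results of these data known. Full values are given for the highest 4 and lowest 2 detected members of each complex, for isoform genes, subunit c genes and members past 2-fold, and for the highest 2 genes of other lists. Other genes were named after their values were seen. The planned protein comparison was replaced by one of coding sequences. Depth was 39919884 and 48043010 expected counts. Intervals and floors (3 counts) cover counting error only. A member of complex I enters the counts and medians but is not reported here by itself.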

Additional observations from a re-analysis of the deposited data

Results flagged for a closer look

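Rows outside the members held counts of nearly the same sequences. Near-identical copies of subunit genes, most of them annotated as processed pseudogenes, held 6401.32 expected counts in replicate 1 and 6540.39 in replicate 2, in rows that the levels of the members do not use. Gm10221, the copy of Atp5l, and Ndufb4c, the copy of Ndufb4, held most of these counts in both libraries. The series has no control samples, and which locus gave the reads was not tested.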

How the results depend on the processing

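No paired analysis was possible because the series has 1 group. The added alternatives, protein-coding transcripts only and copies included, were chosen after seeing the data. As deposited, the median TPM was 42.7 for all members, 35.7 for complex I, 44.4 for II, 65.8 for III, 33.9 for IV and 74.2 for V, a scale summed over all rows of the tables. Over detected members the median was 227 for all and 499 for complex IV. Over coding transcripts it was 142 for complex I and 271 for complex III, and complex IV, at 161, then lay above complex I. With 1 library left out, medians ranged from 128 to 152 for complex IV and from 269 to 283 for complex III. The median ratio of replicate 1 over replicate 2 was, as deposited, 0.23 for all members, 0.39 for complex I, 0.018 for II, 0.14 for III, 0.21 for IV and 0.10 for V. For complex I it was -0.015 with TMM and -0.014 with DESeq2 size factors, and for complex III 0.073 over coding transcripts. The coding values of complex III leave out the Uqcrc2 transcript that has no class in the newer annotation. As deposited, 3 members were past 2-fold higher in replicate 1 and 2 in replicate 2, and with copies 3 in replicate 2. Ndufb4 turned to 0.37 with copies and was -0.85 with TMM. With a pseudocount of 1 the log2 ratio of isoforms, which a floor then no longer sets, was 8.99 for Cox4i1, 6.61 for Cox6a1, 9.18 for Cox7b, 9.37 for Cox8a over Cox8c and 8.94 for Ndufa4. With posterior mean TPM it was 8.78 for Cox7a2, 12.4 for Cox7b, 11.3 for Cox8a over Cox8b and 12.1 over Cox8c. Every pair kept its direction under the alternatives run. In windows of 200 bases before the start, NRF1 matches fell in 5 members, ETS in 10 and YY1 in 1. Levels and ratios were called moved when they shifted by more than 1 SD between the libraries, and counts when they changed by more than 1.5 times. By these rules 36 of the values for groups, pairs, counts and motifs moved and 105 did not. Leaving out 1 of 2 libraries cannot shift a mean over both by more than 1 SD. The isoform pairs therefore could not move at that step, and their unmoved values there say nothing about stability. The cause was not tested unless stated. Depth limits Cox6a2 and Ndufa4l2, with 2 counts or fewer.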
